A study of Mus musculus with 2 samples.

Results

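Amh encodes anti-Müllerian hormone (AMH), and Inha, Inhba and Inhbb encode the subunits of inhibins and activins. Amhr2 and Fshr encode the receptors through which AMH and follicle-stimulating hormone (FSH) act. These genes were chosen by symbol, 6 of the 32285 genes counted, and no measured value entered the choice. The study made droplet-based 10x 3' V3 libraries, 1 per genotype, from whole testes of C57BL/6 mice that were 13 days old. The knockout library came from Psma7 F/-;Stra8-Cre KI/+ mice, which carry a floxed and a null copy of Psma7, a subunit gene of the constitutive 20S proteasome, and a Cre knocked in at Stra8, a gene of germ cells. The control library came from Psma7 F/+ mice, with a floxed and a normal copy and no Cre on the label. Psma7 F is shared by both groups, F/- leaves every cell of the knockout mice with a null copy, and the number of animals behind a library is not given. The title of the series places its question in the upkeep and differentiation of spermatogonia.

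Sertoli cells are the somatic cells that enclose the germ cells inside the seminiferous tubules. Before puberty they divide and make much AMH, which removes the Müllerian ducts in the male fetus, and AMH output declines as they mature and as androgen action and meiosis set in. AMH binds AMHR2, a type II receptor of the TGF-beta family, which works with the type I receptors of the bone morphogenetic proteins. Inha encodes the alpha subunit, which forms inhibin A with the beta A subunit of Inhba and inhibin B with the beta B subunit of Inhbb, while dimers of beta subunits alone are activins. Inhibin B from Sertoli cells holds back FSH release from the pituitary, and FSH acts on Sertoli cells through FSHR, a receptor coupled to cAMP.

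The 6 genes were found in the GENCODE annotation of GRCm38 (mm10) and all encode proteins. Amh lies on chromosome 10 at 80805243 to 80807648 and has 5 exons. Amhr2 lies on chromosome 15 at 102445367 to 102454633. Inha and Inhbb are both on chromosome 1, at 75507077 to 75510366 and at 119415465 to 119422248. Inhba lies on chromosome 13 at 16011851 to 16031621, where 2 annotated genes, B230303A05Rik and Gm48444, overlap it on the other strand. Fshr is the longest of the 6, with 215724 bases and 10 exons on chromosome 17 at 88984952 to 89200675. No annotated gene overlaps the other 5 members.

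For 5 members a RefSeq promoter sequence (GRCm38.p6) was at hand, and the 250 bases before the start that RefSeq gives were searched for 3 known motifs. The motifs were CACGTG, an E-box bound by upstream stimulatory factors, CAAGGTCA, a site of the orphan receptor NR5A1, and TGACGTCA, the cAMP response element. Both strands were read and the motifs do not overlap in the hits. The receptors held the only matches, and their windows are shown because these 2 genes encode the receptors for AMH and FSH. In capitals, the Fshr window (chr17:89200676-89200925, minus strand) has CACGTG at 61 to 56 bases before the start, and the Amhr2 window (chr15:102445117-102445366, plus strand) has CAAGGTCA at 232 to 225 bases before it.
Fshr: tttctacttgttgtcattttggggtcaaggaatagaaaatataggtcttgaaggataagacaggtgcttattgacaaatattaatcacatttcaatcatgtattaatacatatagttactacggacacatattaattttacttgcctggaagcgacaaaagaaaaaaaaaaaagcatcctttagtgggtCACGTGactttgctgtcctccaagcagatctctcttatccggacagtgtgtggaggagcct
Amhr2: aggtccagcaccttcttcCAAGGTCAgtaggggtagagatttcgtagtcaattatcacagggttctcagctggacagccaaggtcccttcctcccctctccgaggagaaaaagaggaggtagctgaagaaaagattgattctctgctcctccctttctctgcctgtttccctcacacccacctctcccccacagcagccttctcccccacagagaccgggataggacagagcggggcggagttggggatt
Of all 32851 promoter windows in the table, 6.02% held the E-box, 1.33% the NR5A1 site on either strand and 1.55% the cAMP response element, which 0 of the 5 members had. The Inha window, at 75507359 to 75507608, lies inside the GENCODE bounds of the gene, since RefSeq starts it further downstream. A match of letters is a description and shows no binding.

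Cells were barcodes with at least 1000 UMIs (counted molecules), 500 genes and at most 20% mitochondrial UMIs, 10598 in the knockout library and 10742 in the control after doublets were removed, and 28 barcodes occurred in both libraries. The libraries held 112746953 and 146528736 UMIs, with medians of 5393.5 and 8042.5 per cell. Psma7 (chromosome 2, 180036374 to 180042433) checked the labels and stood at 86.6 CPM (UMIs of the gene per 1000000 UMIs of a class) in Sertoli-like cells of the knockout library and 237 CPM in those of the control, and at 84.3 and 221 CPM in germ cells. The knockout level was 36.6% of the control's in Sertoli-like cells, 38.2% in germ cells and 42.0% to 48.6% in the other classes compared. The check thus tells the 2 libraries apart and does not show deletion by Cre. The knockout library held 6536 Sertoli-like and 401 germ cells, and the control 3846 and 3780. The label of the Sertoli-like class held against its markers: 12 markers summed to 8019 CPM in the knockout library and 7726 CPM in the control, at most 590 and 711 CPM in the 6 other classes compared, and Cst12 alone stood at 1050 and 976 CPM in Sertoli-like cells against 30.2 and 17.4 CPM in germ cells. With 1 library per genotype no test between genotypes was possible. Every 95% interval covers counting error only, the differences have no replicate check, and genotype cannot be told apart from the animals or the suspension.

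Amh, the hormone gene, differed most between the libraries. In Sertoli-like cells it stood at 287 CPM in the knockout library (11253 UMIs, interval 281 to 292) and 61.8 CPM in the control (1801 UMIs, 59.0 to 64.7). The Amh level of the knockout library was 4.63-fold that of the control (4.41 to 4.88), a log2 ratio of 2.21, and the intervals are far apart. Of the 16870 genes with at least 30 UMIs in Sertoli-like cells, 95 had a higher ratio. At least 2-fold higher were 2 of the 6 members, Amh and Inhba, against a background of 8.22% of the genes measured, and 0 members were 2-fold lower, against 4.08%; the median gene stood at a log2 ratio of 0.03. Inhba is described apart below, since its Sertoli level lay near that of free RNA.

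The share of cells with Amh differed as well when depth was made equal. Sertoli-like cells of the knockout library were shallower, with a median of 4107 UMIs against 5087.5 in the control, so each cell was thinned to 2000 UMIs, which left out 570 and 263 shallower cells. After thinning, Amh was seen in 38.3% of Sertoli-like cells of the knockout library (37.0 to 39.5) and 11.3% of those of the control (10.3 to 12.4). Without thinning the shares were 58.5% and 26.6%. At least 2 Amh UMIs were left in 12.1% of knockout and 0.893% of control cells. Germ cells, which should lack the gene, showed it in 3.04% of 362 knockout cells and 0.198% of 3542 control cells after the same thinning, so the Sertoli shares lay well above that background in both libraries.

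**Figure D1:**
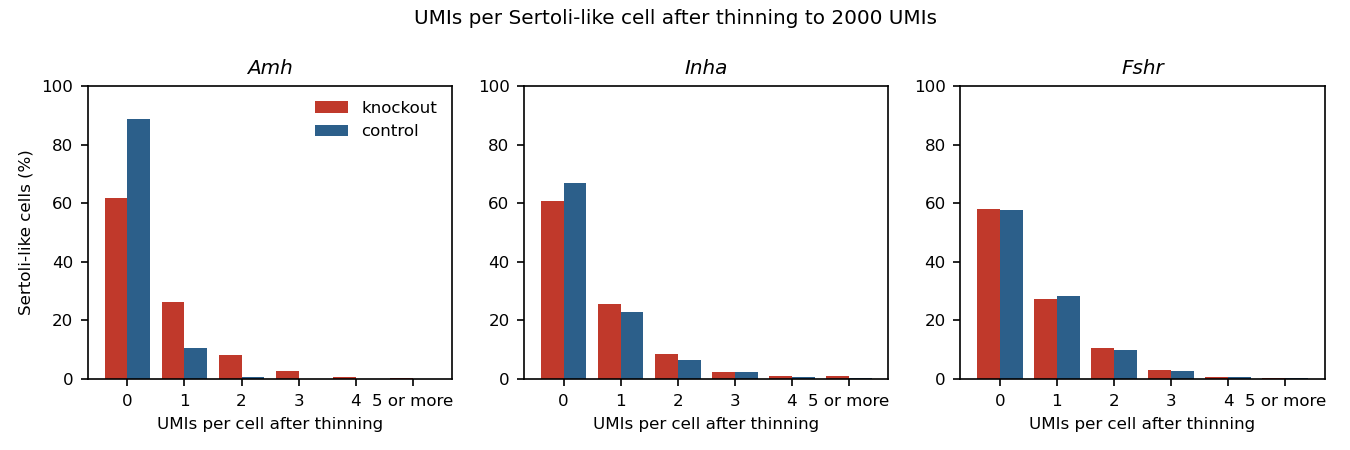
Share of Sertoli-like cells (y axis, %) with 0 to 5 or more UMIs of Amh, Inha and Fshr (x axis) after thinning each cell to 2000 UMIs, knockout left of control. For Amh, 61.8% of knockout and 88.7% of control cells had none, whereas the Fshr bars of the 2 libraries are nearly level, with a UMI in 42.1% and 42.2% of cells.

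The inhibin subunits of Sertoli-like cells, Inha and Inhbb, were modestly higher in the knockout library. Inha had 17520 UMIs and 446 CPM in knockout Sertoli-like cells (440 to 453) and 9536 UMIs and 327 CPM in control ones (321 to 334), a log2 ratio of 0.45 (0.41 to 0.48). Inhbb had 6005 UMIs and 153 CPM in knockout cells (149 to 157) and 3506 UMIs and 120 CPM in control cells (116 to 124), a log2 ratio of 0.35 (0.29 to 0.41). Both stayed under 2-fold, and 3973 and 4786 of the measured genes had higher ratios. After thinning, Inha was seen in 39.1% of knockout and 33.1% of control cells and Inhbb in 24.3% and 20.9%. Both subunits of inhibin B were seen together in 2065 of 6536 knockout cells (31.6%) and 1222 of 3846 control cells (31.8%) at full depth. After thinning they were seen together in 571 of 5966 knockout and 256 of 3583 control cells, a larger share in the knockout library.

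The receptor genes went different ways. Amhr2 stood at 264 CPM in knockout Sertoli-like cells (259 to 269) and 328 CPM in control ones (322 to 335), so that the knockout level was 0.81 of the control's and the log2 ratio -0.31 (-0.35 to -0.27). Fshr stood at 314 CPM in knockout (309 to 320) and 309 CPM in control cells (303 to 316), a log2 ratio of 0.02 whose interval of -0.01 to 0.06 includes 0. After thinning Amhr2 was seen in 35.7% of knockout and 42.3% of control cells and Fshr in 42.1% and 42.2%. Summed over the class, the RNA of Amh and that of Amhr2 thus stood on opposite sides of the control level. This holds for the class as a whole and not for single cells or each cluster. Seen together at full depth, Amh and Amhr2 shared 2558 knockout cells (39.1%) and 854 control cells (22.2%).

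How often cells held a pair of these 5 members was close to what their own frequencies give. Over the 10 pairs, cells with both were 0.947 to 1.13 times as many as independence gives in the knockout library and 0.956 to 1.25 times in the control, after thinning. By pair, cells with both Amh and Inha were 1.11 times as many as independence gives in the knockout library and 1.25 times in the control, and cells with Amhr2 and Inha 1.13 and 1.16 times. Cells with Amh and Fshr were 0.95 and 0.99 times as many. Of the cells deep enough to be thinned, those with and without Amh had close depths, medians of 4485.5 and 4310.5 UMIs in the knockout library and 5465.5 and 5327 in the control. These ratios pool clusters that differ in level and are descriptions of cells of 1 library each.

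Several measures of the cells moved with genotype in the same class. Malat1, a nuclear RNA, stood at 19910 CPM in knockout and 13562 CPM in control Sertoli-like cells, and the median mitochondrial share was 10.2% and 9.13%. The 5 germ cell markers summed to 9.70 CPM in knockout and 133 CPM in control Sertoli-like cells, with 0 of them at 0. Of the 12 Sertoli markers, whose sums are given above, 5 stood higher in the knockout library and 7 lower, and they ranged from Dhh at 126 and 79.0 CPM to Tsx at 3.77 and 20.8 CPM. The part of these measures in the ratios was not tested.

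Sertoli-like cells fell into 10 clusters, of which 7 had at least 50 cells in both libraries. Amh was higher in the knockout library in 7 of these 7, with log2 ratios of 1.25 to 2.51 and every interval above 0. Its level ranged over clusters too, from 85.1 to 412 CPM in the knockout library and from 24.9 to 108 CPM in the control, so the ranges overlap when clusters are mixed but not within a cluster. Inhbb was higher in 7 of 7 (log2 0.20 to 0.81), with 6 intervals above 0, and Inha in 6 of 7, with 5 above 0. Amhr2 was lower in 5 of 7, all with intervals below 0, and in cluster 4 it was higher, 198 against 157 CPM (log2 interval 0.03 to 0.66). Fshr was higher in each of the 6 clusters with at least 30 of its UMIs, but 1 interval lay above 0. Clusters were weighted differently in the 2 libraries: clusters 0, 1 and 4 held 1654, 1693 and 1264 knockout cells and 531, 120 and 143 control cells, whereas cluster 5 held 196 and 1050. With clusters weighted equally the mean Amh level was 279 CPM in the knockout library and 76.7 CPM in the control, a log2 ratio of 1.86.

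**Figure D2:**
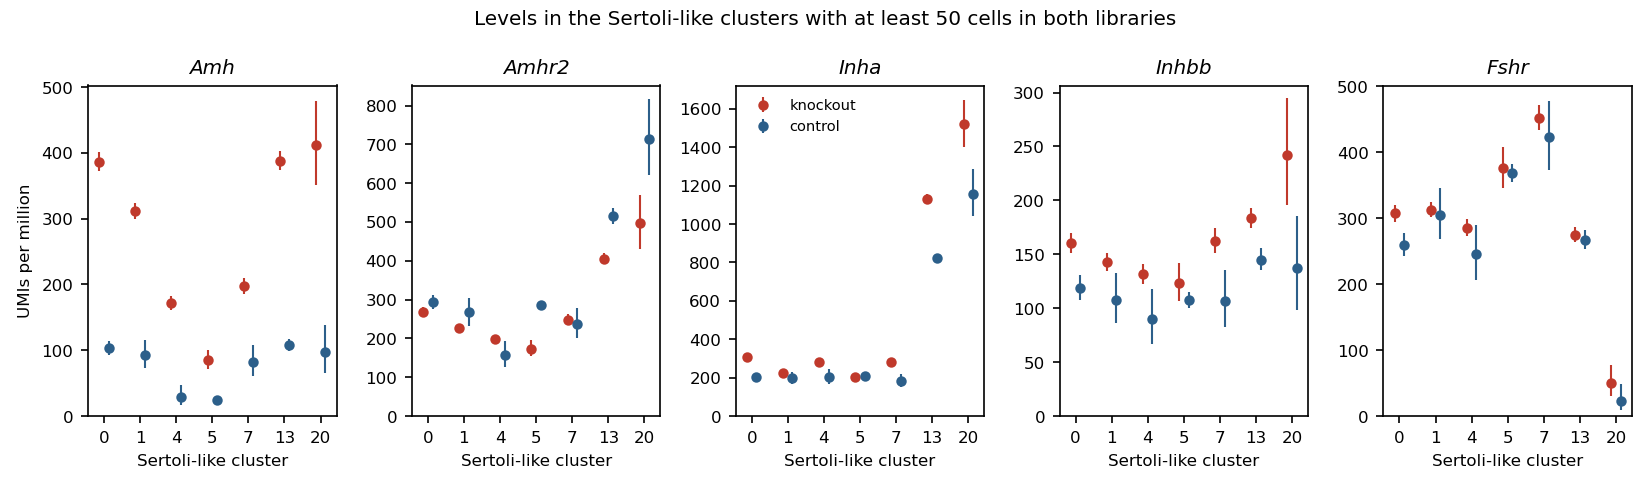
Levels (y axis, CPM) of 5 genes in the 7 Sertoli-like clusters with at least 50 cells in both libraries (x axis, cluster number), knockout left of control, with exact 95% Poisson intervals. Amh is higher in the knockout library in each cluster, Inha is highest in clusters 13 and 20 of both libraries, and Fshr is lowest in cluster 20.

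Clusters 13 and 20 stood apart in the same way in both libraries. Cluster 13, led by Cst9, Spp1 and Cst12, is made of deep cells, with a median of 15833.5 UMIs in the knockout library, and had little Malat1 for the class, 8134 CPM in the knockout library and 6659 CPM in the control. Its Inha level was 1132 CPM in the knockout library and 822 CPM in the control, and its Amhr2 level 406 and 515 CPM. Cluster 20, of cells with few UMIs (median 1610 in the knockout library), had still less Malat1, 5349 and 1039 CPM, and Inha at 1521 and 1159 CPM. Fshr there was only 49.9 CPM in the knockout library and 23.4 CPM in the control, against 274.6 to 452 and 245 to 423 CPM in the other 6 clusters. Inha was thus highest in the 2 Sertoli-like clusters with the lowest Malat1, a pattern seen after the values were known.

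Dividing cells, taken as those with at least 0.1% of their UMIs in 12 genes of mitosis, were 473 Sertoli-like cells of the knockout library (7.24%) and 49 of the control (1.27%), and 369 and 257 cells lay within 0.05% to 0.15%. Amh stood at 212 CPM in dividing knockout cells and 40.6 CPM in dividing control cells, against 295 and 62.3 CPM in the cells that were not dividing. The log2 ratio of knockout over control was thus 2.36 (1.80 to 3.04) in dividing and 2.25 (2.17 to 2.32) in the other cells. Fshr was lower in dividing cells of both libraries, at 232 CPM in the knockout library and 150 CPM in the control, against 324 and 312 CPM in the others. Inha was higher in dividing cells of the knockout library, at 527 against 437 CPM, a log2 ratio of 0.27 (0.21 to 0.34). In the control it stood at 365 against 327 CPM, and the interval of that ratio, -0.04 to 0.36, includes 0. The control values rest on 24 UMIs of Amh and 89 of Fshr. These values pool clusters that differ in Inha. In the knockout library, Inha stood at 218 CPM in the 314 cells of cluster 19, led by Iqgap3 and histone genes. It stood at 1132 CPM in cluster 13. The part of the cluster mix in the Inha ratio of dividing cells was not tested, so no higher Inha with division is read from it.

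Outside the Sertoli-like class, Amh and Fshr lay near the levels that free RNA would give. Barcodes with 10 to 100 UMIs, which hold RNA from burst cells, gave 1681391 UMIs in the knockout library and 1094698 in the control. In this free RNA, Amh stood at 163 CPM in the knockout library and 21.9 CPM in the control, Amhr2 at 164 and 89.5, Inha at 344 and 147, Inhba at 48.2 and 14.6, Inhbb at 83.9 and 39.3 and Fshr at 149 and 60.3 CPM. All 6 were thus higher in free RNA of the knockout library, with log2 ratios of 0.87 for Amhr2 to 2.87 for Amh, and Fshr, level in the cells, stood at 1.29. The 12 Sertoli markers summed to 6006 CPM in free RNA of the knockout library and 3360 CPM in that of the control.

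Held against free RNA, Sertoli-like levels were 1.76-fold for Amh in the knockout library and 2.82-fold in the control, 1.61- and 3.67-fold for Amhr2, 1.30- and 2.23-fold for Inha, 1.82- and 3.06-fold for Inhbb and 2.11- and 5.13-fold for Fshr. These 5 levels all exceeded that of the free RNA itself. The share of free RNA among UMIs of Sertoli-like cells, read from 9 Leydig and macrophage markers, had a median of 3.2% in the knockout library and 4.31% in the control, but single markers ran from 2.43% to 34.3% and from 0.958% to 83.6%. At the median share, free RNA would give 5.21 CPM of Amh in knockout Sertoli-like cells and 0.946 CPM in control ones. With it subtracted the log2 ratio of Amh was 2.19.

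**Figure D3:**
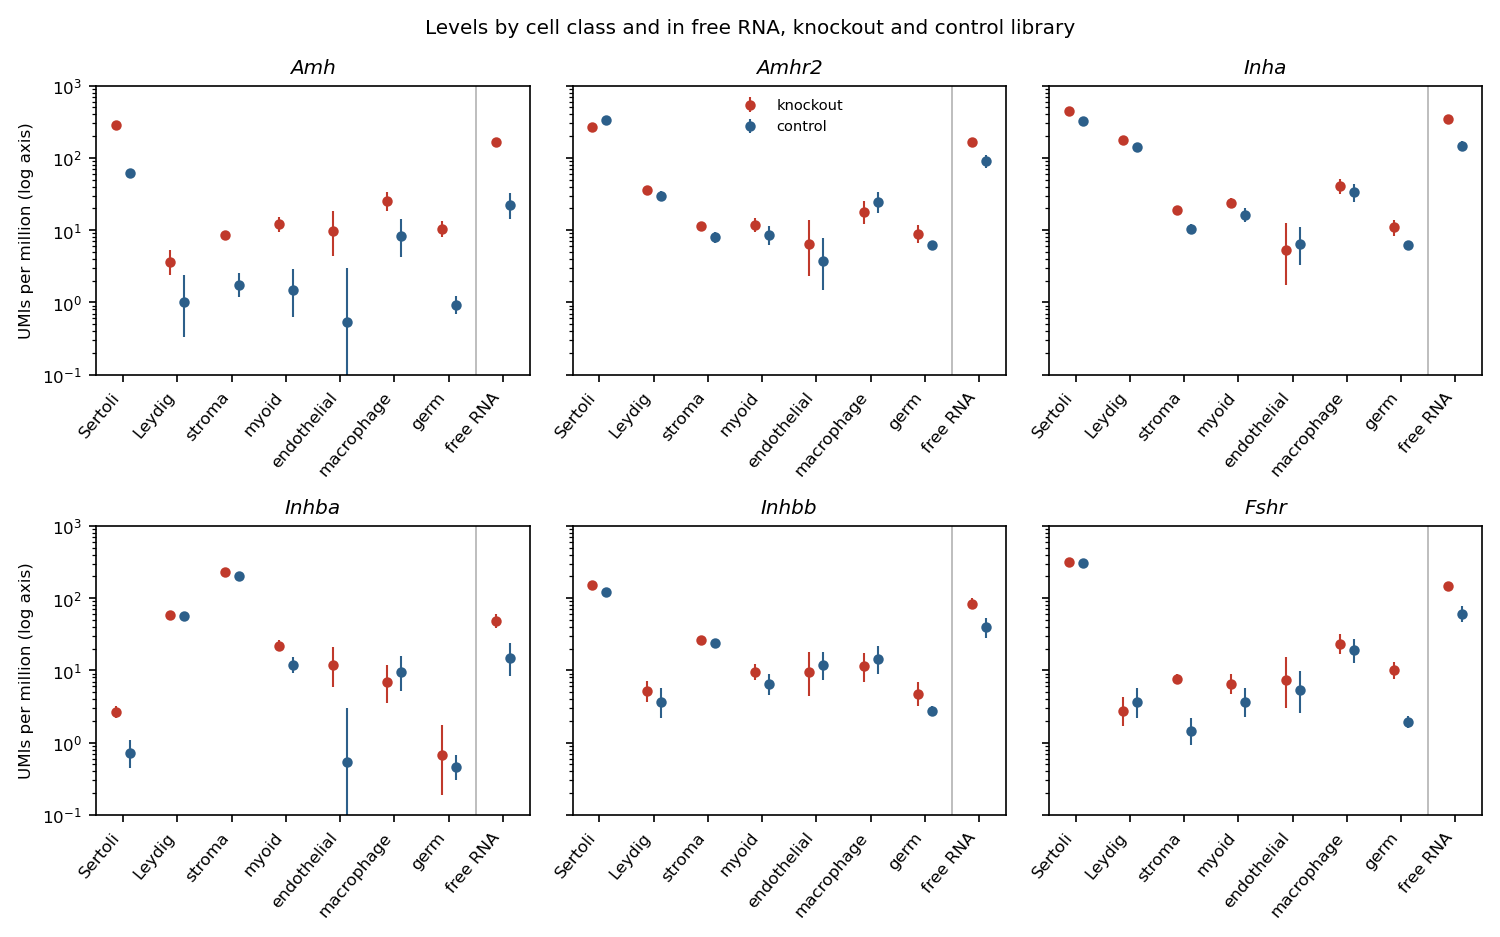
Levels (y axis, CPM, log axis) of the 6 genes in 7 cell classes and in free RNA (x axis), knockout left of control, with exact 95% Poisson intervals. Amh and Fshr peak in Sertoli-like cells, Inhba in stroma, and Inha has a further high level in Leydig-like cells.

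Sertoli-like cells held 95.4% of the Amh UMIs of all knockout cells and 94.2% of those of control cells, and 96.5% and 97.6% of the Fshr UMIs. In the 6 other classes Amh ranged from 3.61 to 25.0 CPM in the knockout library and from 0.533 to 8.17 CPM in the control, with macrophages highest in both. Against what the median free RNA share of each class would give, they were 0.71 to 2.35 times in the knockout library and 0.41 to 1.67 times in the control, and Fshr 0.60 to 2.005 and 0.36 to 1.51 times. Set against free RNA of their own library, those levels were 2.22% to 15.4% in the knockout library and 2.43% to 37.2% in the control. Germ cells of the knockout library had Amh at 10.4 CPM and control germ cells at 0.920 CPM. These are 6.39% and 4.199% of the free RNA levels, close to the 4.76% and 4.02% that Sertoli markers gave as the median free RNA share of germ cells, with a range over markers of 2.38% to 34.2% and 3.004% to 9.32%. At the median share free RNA would give 7.76 CPM of Amh in knockout germ cells, just below the interval of 7.96 to 13.4 CPM, and 0.881 CPM in control ones, within that of 0.687 to 1.21 CPM. No expression of Amh in germ cells is read from these levels.

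Leydig cells, the steroid-making cells between the tubules, also held Inha. Inha stood at 176 CPM in Leydig-like cells of the knockout library (1267 UMIs in 307 cells) and 141 CPM in those of the control (697 UMIs in 300 cells), a log2 ratio of 0.32 (0.19 to 0.46). This was 16.3-fold and 22.5-fold what the median free RNA share would give. The UMIs were concentrated, with 66.6% of them in the 31 knockout cells that had most and 74.2% in the 30 control cells that had most, 10% of the class each. This is not particular to Leydig-like cells: by the same count the top 10% of Sertoli-like cells held 66.2% and 61.8% of their Inha UMIs. After thinning, 62 of 298 knockout Leydig-like cells (20.8%) and 42 of 295 control ones (14.2%) had an Inha UMI.

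Leydig-like cells with more Inha had a higher sum of the Leydig markers and no higher sum of the Sertoli markers. The 20 knockout and 14 control cells with at least 2 Inha UMIs after thinning had 8 Leydig markers at a sum of 12274 and 11561 CPM, against 5211 and 4666 CPM in the 236 and 253 cells with none. Their Sertoli markers summed to 383 and 253 CPM, against 395 and 356 CPM in the cells with none. Their Amhr2 level was 59.4 and 77.5 CPM, against 31.2 and 23.3 CPM. These cells were picked by their Inha, and the differences are a description of few cells. Over all Leydig-like cells the Sertoli markers summed to 389 and 338 CPM, of which Aard alone gave 275 and 244 CPM. Aard stood at 11.5% and 19.1% of its free RNA level, against medians over the Sertoli markers of 3.13% and 4.26%. The sum thus follows mostly Aard and says little about Sertoli RNA in these cells.

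Amhr2 itself was seen in Leydig-like cells at 36.1 CPM in the knockout library and 29.5 CPM in the control, 7.03-fold and 7.75-fold what free RNA would give, with a log2 ratio of 0.29 (-0.01 to 0.59). Inhba stood there at 59.1 and 56.4 CPM, with a ratio on the log2 scale of 0.07 (-0.15 to 0.29). The markers of interstitial stroma summed to 2657 and 3163 CPM in Leydig-like cells, and their part in this Inhba was not tested. Both subunits of inhibin A, Inha and Inhba, were seen together in 110 of 307 knockout Leydig-like cells (35.8%) and 69 of 300 control ones (23.0%), at median depths of 22334 and 15661.5 UMIs. After thinning, Inhba was seen in 10.7% of knockout and 14.9% of control Leydig-like cells. The pair was not counted at equal depth, so no difference in it is read from these shares. Beta B, the other partner, was low, with Inhbb at 5.14 CPM in the knockout library and 3.64 CPM in the control. Leydig-like cells of the 2 libraries differed little over all genes: 1.47% of 12714 genes were 2-fold higher and 0.897% 2-fold lower, and Amh, on 26 and 5 UMIs and at 0.71 and 1.08 times what free RNA would give, was the only member among them.

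Inhba was a gene of the interstitial stroma, the Pdgfra- and Dcn-bearing cells around the tubules. Stroma of the knockout library had it at 226 CPM (6461 UMIs) and stroma of the control at 203 CPM (3214 UMIs), log2 0.16 (0.10 to 0.22) for knockout over control. Stroma held 89.7% of all Inhba UMIs of the knockout cells and 88.3% of those of the control. Shares of stromal cells with a UMI were 75.8% and 66.3% at medians of 12775 and 8989 UMIs, and 30.5% and 30.1% after thinning. The difference in shares at full depth was thus not seen at equal depth. Peritubular myoid cells, the contractile cells of the tubule wall, had Inhba at 22.0 CPM in the knockout library and 11.8 CPM in the control, a log2 ratio of 0.89 (0.46 to 1.35), on 142 and 64 UMIs. The stromal markers summed to 3936 and 3780 CPM in that class, and their part in its Inhba was not tested.

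Stromal clusters differed more from each other than the libraries did. Inhba was highest in cluster 3, at 311 CPM in the knockout library and 252 CPM in the control, and stood at 229 and 207 CPM in cluster 2. It was 9.73 and 11.9 CPM in cluster 25, led by Col6a5, Ebf2 and Postn. Inhbb had another pattern, with 89.4 CPM in the knockout library and 87.1 CPM in the control in cluster 18, led by Fam180a, Pamr1 and Epha3, against 10.8 to 26.7 and 16.5 to 21.5 CPM in the other 4 stromal clusters. Over all stroma Inhbb stood at 26.1 and 23.5 CPM, with a ratio on the log2 scale of 0.15 (-0.03 to 0.33). Cluster 18 thus had both beta subunits, with Inhba at 122 and 118 CPM, and Inha in stroma, 18.9 and 10.4 CPM, lay at 0.85 and 1.06 times what free RNA would give.

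In Sertoli-like cells Inhba stood near its free RNA background. It had 105 UMIs and 2.67 CPM in the knockout library and 21 UMIs and 0.721 CPM in the control, a log2 ratio of 1.86 (1.21 to 2.64). Those levels are 5.55% and 4.93% of the free RNA levels, within the range that Leydig and macrophage markers gave for free RNA in these cells, and Inhba in free RNA had a log2 ratio of 1.69 (0.94 to 2.59). At the median share free RNA would give 1.54 CPM in knockout cells, below the interval of 2.19 to 3.24 CPM, and 0.631 CPM in control cells, within that of 0.446 to 1.10 CPM. No difference in expression is read from these levels. After thinning 27 of 5966 knockout cells (0.453%) and 8 of 3583 control cells (0.223%) had an Inhba UMI, against 0.276% and 0.141% of germ cells. Transcripts of Inha thus occurred beside those of Inhbb in Sertoli-like cells and beside those of Inhba in Leydig-like cells, in both libraries.

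**Figure D4:**
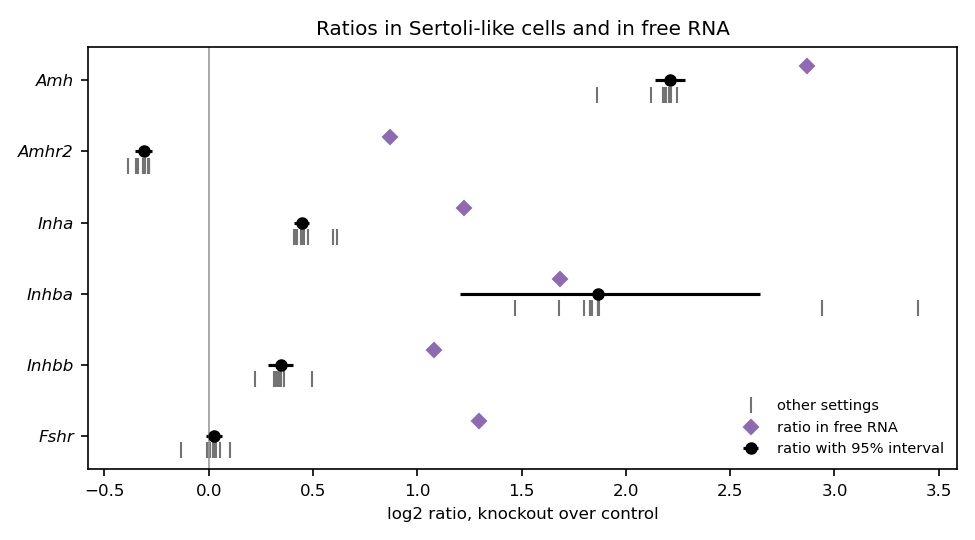
Log2 ratios (x axis, knockout over control) of the 6 genes (y axis) in Sertoli-like cells with exact 95% intervals (black), the same ratio under other settings (grey ticks) and in free RNA (diamonds). Amh is at 2.21 in cells and 2.87 in free RNA, Amhr2 lies below 0 in cells and Fshr near 0.

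Summed over all cells, the 6 genes were all higher in the knockout library, where Sertoli-like cells made up 61.7% of cells, against 35.8% in the control. Amh stood at 129 CPM over all knockout cells and 16.5 CPM over all control cells, a log2 ratio of 2.97, against 2.21 within Sertoli-like cells. Inha was at 217 and 94.2 CPM, and Amhr2, lower within Sertoli-like cells, at 123 and 88.8 CPM, a log2 ratio of 0.47. The sign of Amhr2 over the whole suspension was therefore the opposite of that within its main class.

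The genes around the members in their pathways were taken from 7 lists of 50 genes, 47 of them with at least 30 UMIs in Sertoli-like cells. Of these 47, 6 were at least 2-fold higher in the knockout library and 1 at least 2-fold lower, against 8.22% and 4.08% of all genes measured, and their median log2 ratio was 0.05 against 0.03. The lists were fixed with earlier results of these data known and are no independent evidence. Among the 9 receptors and co-receptors, 2 were 2-fold higher, both at low levels: Bmpr1b, a type I receptor, at 2.88 CPM in knockout and 1.06 CPM in control cells, and Tgfbr3 at 6.29 and 3.06 CPM. Stroma held more of both: Bmpr1b at 21.1 CPM (knockout) and 18.6 CPM (control), Tgfbr3 at 292 and 312 CPM. Stromal markers summed to 185 and 88.7 CPM in Sertoli-like cells, and the part of free RNA in these 2 ratios was not tested. Bmpr1a and Acvr1, type I receptors that work with AMHR2, stood at 315 and 344 CPM (log2 -0.13) and at 89.5 and 86.5 CPM (0.05).

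Of the 8 SMAD genes, the transducers of these receptors, 2 were 2-fold higher. Smad6, an inhibitory SMAD, had the highest ratio of all lists, at 67.0 CPM in knockout Sertoli-like cells (2630 UMIs) and 9.13 CPM in control ones (266 UMIs), a log2 ratio of 2.87 (2.69 to 3.06). Smad7, the other inhibitory member, was at 403 and 218 CPM (0.88), and Smad9 at 1.60 and 0.584 CPM (1.43). Smad1, Smad4 and Smad5, which carry or share the AMH signal, were between -0.14 and 0.32. Of the 3 extracellular binders and decoys 0 were 2-fold apart. The binders of activin were lower: Fst, follistatin, at 6.21 CPM in knockout and 10.8 CPM in control cells (-0.80), and Fstl3 at 22.8 and 29.2 CPM (-0.36). Bambi, a decoy receptor, was higher, at 68.2 and 48.7 CPM (0.49).

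Of 8 transcription factors known to act on Amh, 0 were 2-fold apart. The intervals of 3 lay above 0 and those of 3 below it, close to the 33.4% and 29.9% of all genes measured. Sox9, which switches on Amh in the fetal testis, stood at 1329 CPM in knockout and 929 CPM in control Sertoli-like cells (log2 0.52) and Sox8 at 414 and 244 CPM (0.76). Gata4 was at 404 and 390 CPM (0.05) and Nr5a1 at 58.1 and 57.4 CPM (0.02). Wt1, a zinc finger factor, was lower, at 510 and 804 CPM (-0.65). Nr0b1, an inhibitor of NR5A1, was at 43.3 and 51.7 CPM (-0.25) and Dmrt1 at 282 and 289.5 CPM (-0.04).

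On the FSH side, 1 of 14 genes of cAMP signalling was 2-fold lower. Pde4d, a phosphodiesterase that breaks down cAMP, had the lowest ratio of all lists, at 312 CPM in knockout and 658 CPM in control Sertoli-like cells, a log2 ratio of -1.08 (-1.11 to -1.04). Gnas, the G protein subunit next to FSHR, was at 1337 and 916 CPM (0.55) and the catalytic subunits Prkaca and Prkacb at -0.13 and 0.09. Of 6 genes known to be induced by FSH, 5 were measured and 2 were 2-fold higher: Nr4a1 at 95.1 and 27.6 CPM (1.78) and Fos at 753 and 332 CPM (1.18). Both are immediate-early genes, which tissue handling also induces, and the part of handling was not tested. Ccnd2, a cyclin, was at 193 and 118 CPM (0.71), Shbg at 277 and 197 CPM (0.49) and Trf, transferrin, at -0.08. Cyp19a1, aromatase, had too few UMIs to be measured, at 0.153 and 0.137 CPM.

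**Figure D5:**
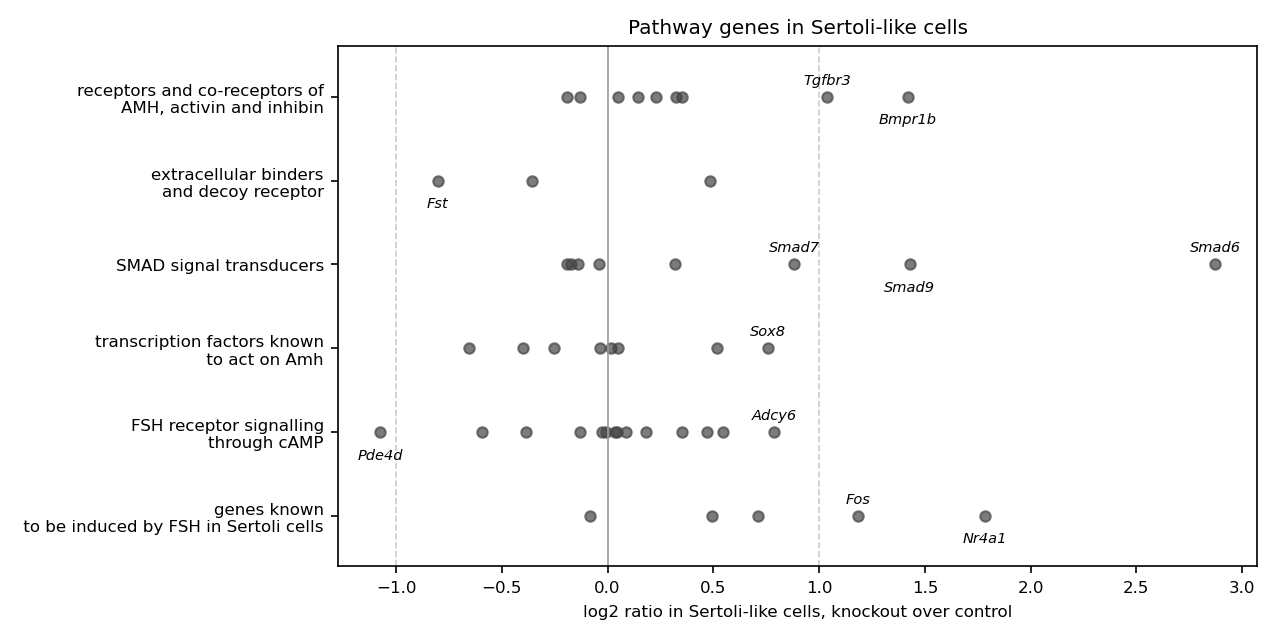
Log2 ratios (x axis, knockout over control) in Sertoli-like cells of the 47 measured pathway genes, grouped by list (y axis); dashed lines mark 2-fold and genes at 0.75 or more from 0 are named. Smad6 is furthest right at 2.87 and Pde4d furthest left at -1.08.

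Receptors for the activins and inhibins lay partly in classes that also held subunits and partly in others. Tgfbr3, betaglycan, the co-receptor that gives inhibin its affinity, stood at 449 CPM in Leydig-like cells of the knockout library and 495 CPM in those of the control, at 353 and 380 CPM in myoid cells and at 292 and 312 CPM in stroma. In Sertoli-like cells it was 6.29 and 3.06 CPM. The activin type II receptor Acvr2b was at 61.2 CPM in germ cells of the knockout library and 75.2 CPM in those of the control, against 18.7 and 14.9 CPM in Sertoli-like cells, and Acvr2a was at 80.5 and 84.5 CPM in germ cells and 85.1 and 77.1 CPM in Sertoli-like cells. The mix of germ cell stages differed between the libraries, and its part in these levels was not tested.

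The genes with the pattern most like each member were ranked by Pearson correlation of log2(CPM + 1) over the 46 pairs of a cluster and a library with at least 50 cells, among 13613 genes. Pairs share their library and its free RNA, and the correlations are descriptions. Amh was followed most closely by Rhox8 (r = 0.94), Kctd14, Dpysl4, Shbg and Bcan (0.92), and Fshr by Map3k21 (0.98), Mtcl1, Slc26a7, Ctnna2 and Gm14569 (0.97). Inha went with Tnni3 (0.98), Gstm7, Clu, Defb19 and Sdsl (0.95), and Amhr2 with H2-Q10 (0.96), Shisa8, Dmrta1, Adora1 and Slc7a4 (0.95). Inhbb went with Cldn11 (0.94), a tight junction gene, Scrn1, Daam2, Kif1a and Slc1a6 (0.91). Inhba had other neighbours, Lhx9 (0.94), Cldn1, Arsi, Prlr and Arsj (0.93). Among the members themselves, Amhr2 and Inha were the most alike pair (0.93). Inhba had weak negative correlations with the other 5, from -0.11 with Inhbb to -0.41 with Fshr, over pairs that span all the classes.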

How the data were processed

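Whole testis of both genotypes was profiled as single cells. The deposited values are raw UMI counts per gene and barcode, which the authors obtained from Cell Ranger (version 7.1.0 per the file headers); the submitters' processing notes name mm10 as the build; how strand and introns were counted is not given in the sources used here. The matrices are unfiltered and hold 1477364 barcodes in the knockout and 1707157 in the control library, with 32285 genes.

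Barcodes with at least 1000 UMIs, 500 genes and at most 20% mitochondrial UMIs were called cells, 10864 in the knockout library and 11232 in the control. Scrublet marked 1 knockout cell at its automatic threshold, under the 0.5% taken as a sign of failure, and the threshold found for the control was then applied to each library and removed 266 (2.45%) and 490 cells (4.36%), a choice made after seeing the data. Cells were clustered together in scanpy 1.11.5 (10000 UMIs per cell, 2000 variable genes, 30 principal components, 15 neighbours, leidenalg 0.10.2 at resolution 1), leaving out the 4 members found among the variable genes, which gave 29 clusters. A cluster took a class name when at least 3 markers were 1.5-fold above the remaining cells and detected in 20% of its own; names describe resemblance, and other names could move the shares.

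Levels are UMIs of a gene per 1000000 UMIs of a class (CPM); log2 ratios are knockout over control with 0.5 added to each count. A 3' library counts 1 tag per transcript, so levels were not divided by length, and levels of different genes were not compared. Intervals at 95% are exact Poisson for levels, exact conditional for ratios and Clopper-Pearson for shares (scipy 1.17.1). The ratio and its interval were tested on simulated data. A gene was measured in a class with at least 30 UMIs over both libraries. Classes with at least 50 cells in both libraries were compared. Barcodes with 10 to 100 UMIs stood for free RNA, and its share in a class is the median over markers of other cells with at least 20 UMIs in the free RNA of each library, an estimator settled after seeing the data.

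Genes named are the 6 members, Psma7, the pathway genes with the 2 highest and 2 lowest ratios, and 5 genes most like each member; other pathway genes, class markers and cluster leaders were named after their values were seen. The values of 1 listed gene are not reported here. Members and lists were chosen with earlier results of these data known. The alternatives were stricter cell limits (2000 UMIs and 1000 genes, or 10% mitochondrial UMIs), doublets kept, resolution 2, members kept for clustering, a marker gate without clusters, free RNA subtracted, centring on the median gene and dividing cells left out; added after seeing the data were clusters of few UMIs left out, at least 5000 UMIs per cell and clusters weighted equally.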

Additional observations from a re-analysis of the deposited data

How the results depend on the processing

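No paired analysis was possible because each genotype has 1 library. Under all 12 alternatives Amh, Inha, Inhbb and Inhba stayed higher and Amhr2 lower in Sertoli-like cells of the knockout library, with log2 ratios of 1.86 to 2.25 for Amh, 0.41 to 0.61 for Inha, 0.22 to 0.50 for Inhbb, 1.47 (on 1 cluster) to 3.40 for Inhba and -0.39 to -0.28 for Amhr2, while Fshr ranged from -0.13 to 0.10. These values left the counting interval: with at most 10% mitochondrial UMIs Inha was at 0.61 and Inhba at 2.94; with the marker gate Amh was at 2.12, Amhr2 at -0.39, Inhbb at 0.22 and Fshr at -0.13; with clusters weighted equally Amh was at 1.86, Inha at 0.41, Inhbb at 0.50 and Fshr at 0.10; with at least 5000 UMIs per cell Inha was at 0.59; with free RNA subtracted Inhba was at 3.40, over a control level that the subtraction leaves near 0. The cause was not tested. Few UMIs and free RNA limit Inhba in Sertoli-like cells, and free RNA limits Amh and Fshr outside Sertoli-like cells.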
